A study of Mus musculus with 16 samples.

Results

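Polysome loading was compared between Eif6 heterozygous (Het) and wild-type (WT) gastrocnemius, the large calf muscle. The loading ratio of a transcript is its log2 signal in polysome RNA minus its log2 signal in whole-muscle RNA of the mouse with the same replicate number, and the loading difference is the Het mean minus the WT mean of these ratios. The ratios came from 12 of the 16 arrays of the series, and gave 3 Het and 3 WT values per probe. Of 55681 probe names on the array, 11478 were well above background on all 12 arrays, and they carried 9622 gene names. Where a gene had several such probes, the brightest one stood for it.

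The Het mice were Eif6+/-, with 1 intact copy of the gene, and the WT mice were their Eif6+/+ littermates. All were male C57BL6 mice of 8 to 16 weeks. Polysome RNA was the pool of the sucrose gradient fractions that hold transcripts with several ribosomes, and whole-muscle RNA was total RNA of the same muscle. Muscle was not separated into cell types, so that fewer cells of a type and less RNA per cell cannot be told apart.

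eIF6 binds the large ribosomal subunit and keeps it from joining the small subunit, and it also takes part in making the large subunit. Transcripts under active translation carry several ribosomes and sediment with the polysomes, whereas untranslated RNA is expected in the lighter fractions. The mRNAs encoded by mitochondrial DNA are a special case, because mitochondria translate them on ribosomes of their own.

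Probe sequences are shown for both classes of RNA that stood apart below, the mitochondrial DNA genes and the intergenic loci. Runs of at least 4 G or C letters are in capitals, because the loading difference varied with the G and C content of the probe. All positions are on mouse build mm9. The first group lies in protein-coding genes of the mitochondrial chromosome, at chrM:11370-11429 (ND4), chrM:7870-7929 (ATP8) and chrM:2898-2957 (ND1), each with 35% G and C.
ND4: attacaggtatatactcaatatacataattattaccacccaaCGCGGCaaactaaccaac
ATP8: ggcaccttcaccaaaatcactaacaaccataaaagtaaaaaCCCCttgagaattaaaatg
ND1: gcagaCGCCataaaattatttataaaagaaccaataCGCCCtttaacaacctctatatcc

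The second group are the 3 intergenic loci with the largest drop among those past the study threshold below, without overlap and beyond 1 without WT replicate 2. These are stretches between genes that the array design covers as long intergenic RNA and names by position and orientation (F or R). Their probes lie at chr8:123649851-123649910 on the minus strand, chrX:20563198-20563257 on the minus strand and chr11:117835999-117836058 on the plus strand.
Chromosome 8 locus: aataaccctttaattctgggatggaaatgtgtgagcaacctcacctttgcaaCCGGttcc
Chromosome X locus: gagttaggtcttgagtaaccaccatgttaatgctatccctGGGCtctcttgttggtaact
Chromosome 11 locus: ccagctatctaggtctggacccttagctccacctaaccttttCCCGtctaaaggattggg

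The arrays differed in brightness in a way that followed genotype and RNA kind. Before normalization, the log2 75th percentile signal lay between 3.75 and 5.05 on the Het whole-muscle arrays and between 5.40 and 7.23 on the WT whole-muscle arrays. The step in brightness from whole-muscle to polysome array was 1.16, 2.98 and 1.73 in Het mice 1 to 3, and -1.46, -1.24 and 0.64 in WT mice 1 to 3. These values did not overlap, and brightness and genotype can be told apart only in part. Each mouse had its polysome array on one of the 2 slides and its whole-muscle array on the other. The muscle fibre markers Tnnt3, Myh4, Acta1, Mb and Ckm were bright on every array, and the lowest percentile that any of them took among all probes was 99.3 (Ckm). Eif6 served as a check of the genotype labels. Its polysome level was 9.41, 9.28 and 9.17 in Het mice against 10.54, 10.997 and 10.24 in WT mice, and its whole-muscle level 8.69, 8.70 and 8.51 against 9.95, 9.44 and 9.26 (log2 normalized signal). Eif6 RNA was therefore lower in every Het array of both RNA kinds, while its loading ratio did not pass the test (difference -0.39 ± 0.31 SE, n = 3 against 3, limma adjusted p = 0.51), nor did that of its second probe (-0.13).

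The ratios of WT mice were spread more widely than those of Het mice. The interquartile range of a mouse's ratios over the 11478 probes was 0.81, 0.83 and 0.96 in Het mice and 1.11, 1.45 and 1.04 in WT mice. The groups did not overlap (0.87 ± 0.08 against 1.20 ± 0.22, SD, n = 3 each; 2-sided exact permutation p = 0.1, the smallest that 3 against 3 allows). The difference of -0.33 shrank to -0.03 over all probes when no filter on background was used. More than 2-fold enrichment or depletion on polysomes was found for 11.8%, 12.2% and 17.2% of probes in Het mice, and for 24.1%, 34.0% and 22.4% in WT mice. Across probes, the ratios of any 2 Het mice correlated with r from 0.75 to 0.83, those of WT mice from 0.51 to 0.74, and those of mice of different genotype from 0.27 to 0.66. WT replicate 2 had the widest spread and the lowest correlations within its genotype.

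The study's methods give a threshold of an absolute log2 difference above 1 and p under 0.05, and do not say there whether that p is adjusted. Their general section on statistics names Benjamini-Hochberg correction for multiple tests, so that an adjusted p may have been meant. With an unadjusted limma p, called the study threshold here, 470 gene names had higher and 849 lower polysome loading in Het muscle, with 2 names in both directions. With 1 probe per gene, 365 of 9622 genes (3.79%) were higher and 780 (8.11%) lower. After Benjamini-Hochberg adjustment, 44 genes (0.457%) were higher and 476 (4.95%) lower. The ratios of the genotypes did not overlap, with Het above WT, for 12.5% of genes, and with Het below WT for 14.8%. The adjusted calls covered 608 probes (smallest adjusted p 0.023) and depended on which mice were included. Leaving out WT replicate 2 raised them to 1119 probes, whereas leaving out any one of the other 5 mice left 0. A fit without pairing the arrays of a mouse, a term for the slide and a term for array brightness also left 0. In these fits 1721, 1695 and 661 of the 11478 probes had an unadjusted p under 0.05. With the brightness term, 43 gene names were higher and 603 lower at the study threshold, so that few higher calls were left. Of the 645 names called with the term, 443 were among the 1317 called without it. Of 94 named genes past the study threshold, 16 still passed it with the brightness term, namely Acadsb, Vta1, Cnbp, Cse1l and Eif3e among the higher genes, and Olfr1180, Olfr1348, Pilra, Pm20d1, Gprc6a, Hcrtr1, Kiss1, 1700049G17Rik, Zfp646, Terc and Chad among the lower ones. The other 78 did not. With the brightness term the smallest Benjamini-Hochberg adjusted limma p was 0.75, so that these 16 calls rest on unadjusted p-values. Without WT replicate 2, the 18 that no longer passed were Dld, Sucla2, Etfdh, Uqcrfs1, Ndufa2, Cox7a1, Atp5e, Timm10b, Abce1, Eif2b1, Eprs, Iars, Psmc6, Xirp2, Alas2, Hba-a1, Hist1h2ag and Hist1h2an. Leaving out another mouse instead cost 8 (Het replicate 1), 26 (Het 2), 20 (Het 3), 24 (WT 1) or 6 (WT 3) of the calls. The genes named by size had been chosen to stay beyond 1 without WT replicate 2. With normexp background correction, which models the background of each array, 32 no longer passed, among them Abce1, Acta1, Atp5e, Cct6a, Chad, Cox7a1, Cpt1a, Cse1l, Dld, Eif2b1, Eif3i, Eprs, Fbln1, Iars, Kiss1, Mrpl37, Mrps27, Ndufs8, Plin1, Pprc1, Prkag3, Psmb1, Psmb2, Psmc6, Rnu3b1, Sirt6, Srsf6, Tcp1, Timm10b, Vta1 and Zfp646.

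**Figure D1:**
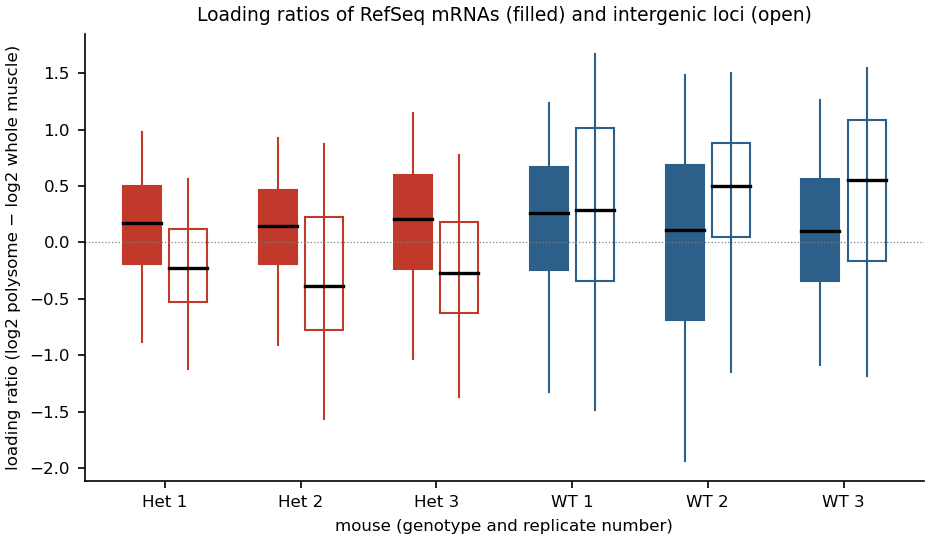
Loading ratio (log2 polysome minus log2 whole muscle) of RefSeq mRNAs (filled boxes, 6780 genes) and of intergenic loci (open boxes, 826 loci) in each of the 6 mice, Het in red and WT in blue. Boxes span the quartiles, black lines are medians and thin lines run from the 5th to the 95th percentile; the medians of intergenic loci lie below 0 in all Het mice and above 0 in all WT mice.

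Intergenic loci were the class with the highest share of lower calls. They made up 826 of the 9622 tested names (8.58%) but 297 of the 780 lower calls (38.1%) and 201 of the 476 adjusted lower calls (42.2%). Their median ratio after normalization was -0.23, -0.39 and -0.27 in Het mice 1 to 3 and 0.28, 0.50 and 0.55 in WT mice 1 to 3. Relative to all transcripts of the arrays, these RNAs were thus on balance depleted from polysomes in Het muscle and enriched there in WT muscle. Before normalization, the median ratio of the loci was 0.86, 2.66 and 1.27 in Het mice and -1.09, -0.83 and 1.13 in WT mice. Their median loading difference was -0.52, beside 0.05 for all genes and 0.09 for the 6780 RefSeq mRNAs. Of the loci, 36.0% were lower and 1.69% higher at the study threshold, against 4.31% and 3.38% of RefSeq mRNAs. The median was -0.54 among the mice with the polysome array on slide 1, -0.58 among those on slide 2, and -0.42 without WT replicate 2.

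The locus on chromosome 8 had ratios of 0.80, -1.21 and -1.79 in Het mice and 3.43, 2.05 and 1.29 in WT mice (difference -2.99 ± 0.71 SE, adjusted p = 0.043). The locus on chromosome X had 0.70, -1.56 and -1.98 against 2.77, 2.01 and 1.27 (-2.96 ± 0.66, adjusted p = 0.037). On chromosome 11 the values were 0.11, -1.91 and -2.07 against 2.75, 1.31 and 0.21 (-2.71 ± 0.71, adjusted p = 0.065). In all 3 loci the groups did not overlap, but Het replicate 1 lay nearer to the WT mice than the other two Het mice did. With array brightness as a term the differences shrank to -0.87, -1.01 and -0.24, and none of the 3 passed the test.

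The drop of the intergenic loci was seen at every level of signal. Genes were split into 5 equal bins of mean signal. In the dimmest bin 41.2% of loci were lower, and in the brightest 22.7%, against 8.39% and 2.04% of RefSeq mRNAs in the same bins. The median was -0.50 for loci in F and -0.52 for loci in R orientation. At 77 positions tested in both, the differences of the orientations correlated with r = 0.05. For 141 loci with a further probe over 60 bases away, the differences of both probes correlated with r = 0.32. In RefSeq mRNAs the correlation was 0.33 over 902 genes, so that the value of any single probe carries limited weight.

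The lower genes differed in both arms, in opposite directions. They were chosen by the polysome difference minus the whole-muscle difference, which favours opposite signs, so that these values describe the calls and are no test of them. For the 297 lower intergenic loci, the median Het minus WT difference was -0.69 in polysome RNA and 0.89 in whole-muscle RNA, and the signs were opposite in 296 of them (99.7%, beside 49.5% of all genes). The 292 lower RefSeq mRNAs gave -0.71 and 0.75. By contrast, the 365 higher genes moved mainly in polysome RNA (0.98, with -0.38 in whole muscle), and in 292 of them (80%, beside 67.5% of all genes) the polysome difference was the larger one. Over all genes the medians were 0.02 and 0.03.

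**Figure D2:**
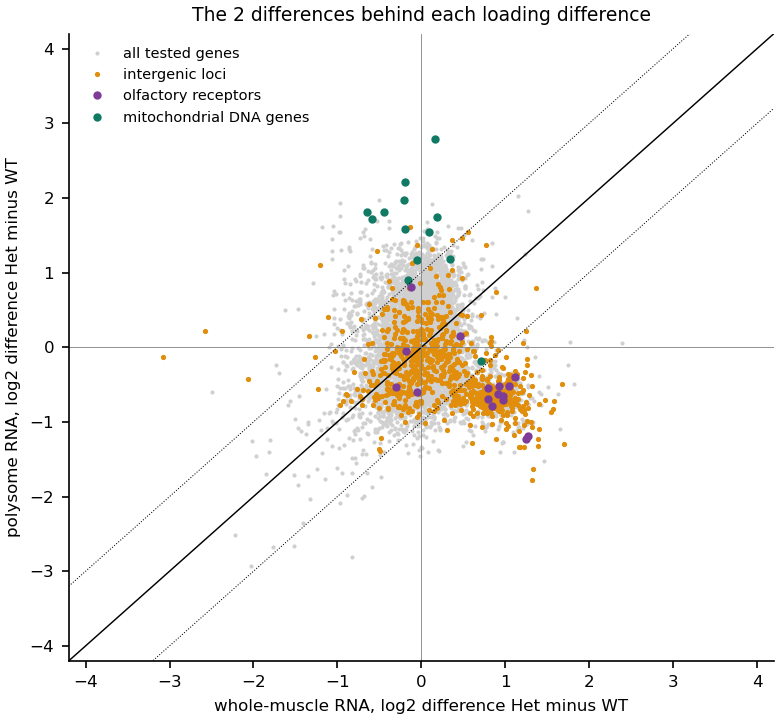
Het minus WT log2 difference in polysome RNA (y axis) against that in whole-muscle RNA (x axis) for the 9622 tested genes, with intergenic loci, olfactory receptors and mitochondrial DNA genes in colour. The solid line marks equal differences and the dotted lines a loading difference of 1; many intergenic loci and 10 olfactory receptors lie in a group below the lower dotted line, and 10 of the 13 mitochondrial DNA genes lie above the upper one.

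The RNAs called lower, intergenic or not, had low slopes on array brightness. Over the 12 arrays before normalization, the log2 signal of RefSeq mRNAs rose by a median of 1.03 per unit of log2 array brightness, that of all intergenic loci by 0.78, that of the 297 lower loci by 0.59 and that of the other 529 loci by 0.94. For all 780 lower genes, the intergenic loci included, it was 0.60. Before normalization, the median ratio of these lower loci was 0.66, 2.28 and 1.02 in Het mice and -0.20, -0.71 and 1.66 in WT mice, beside 1.26, 3.20 and 1.75 against -1.12, -1.21 and 0.66 for RefSeq mRNAs. The unnormalized ratios of the loci were thus below those of mRNAs in every Het mouse and above them in every WT mouse. The lower loci were chosen by the difference itself, and the part of array brightness in it was not tested beyond the brightness term, under which the median of the intergenic loci was -0.70 and 212 were lower.

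Olfactory receptor genes, which serve smell and are not known as muscle genes, moved with the intergenic loci. Of 1077 on the array only 16 passed the filter, and 10 of these were lower (62.5%, beside 8.11% of all genes) and none higher, all 10 with an adjusted p under 0.05 (median difference of the 16, -1.496). Before normalization their median slope on array brightness was 0.60, beside 1.03 for RefSeq mRNAs. Their median ratio was then 0.78, 2.34 and 1.11 in Het mice and -0.33, -0.58 and 1.49 in WT mice. With the brightness term the median difference was -1.05 and 7 were lower, and the part of brightness was not tested further. Olfr1180 (chr2:88252064-88252123) had ratios of -1.38, -0.86 and -1.03 in Het mice and 1.68, 0.97 and 1.46 in WT mice, a difference of -2.46 ± 0.30 (SE, adjusted p = 0.023). Olfr157 gave 0.27, -1.94 and -1.43 against 2.19, 1.102 and 1.01 (-2.47 ± 0.56, adjusted p = 0.039), and Olfr1348 -0.14, -0.73 and -0.64 against 0.99, 0.82 and 1.73 (-1.68 ± 0.33, adjusted p = 0.025). None of the 3 overlapped between genotypes, and with the brightness term Olfr157 (-0.77) no longer passed the test. Among the 8 measured long non-coding and nuclear RNAs, 4 were lower (beside 8.11% of all genes) and none higher. Redrum, a long non-coding RNA, differed by -2.74 ± 0.55 (adjusted p = 0.027), but by -0.93 with the brightness term, without passing the test. Terc, the RNA of telomerase, differed by -1.47 ± 0.30 (adjusted p = 0.027; -1.53 with the term). Rnu3b1, a small nucleolar RNA gene, differed by -1.67 ± 0.56 (adjusted p = 0.14). Its groups overlapped, and its ratios lay between -6.04 and -2.895 in all 6 mice, so that it was far below whole-muscle level on polysomes in both genotypes.

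Camk4, a calcium/calmodulin-dependent kinase, had ratios of 0.37, -1.80 and -1.73 in Het mice and 2.64, 2.35 and 0.82 in WT mice (difference -2.99 ± 0.65 SE, adjusted p = 0.033). Pprc1, a coactivator related to PGC-1, had -0.45, -2.02 and -1.67 against 1.34, 1.17 and 0.27 (-2.30 ± 0.45, adjusted p = 0.026). Both were in the list labelled calcium/calmodulin signalling, although Pprc1 is a coactivator, and they were the only 2 of its 23 measured genes past the threshold. This share of 8.70% lower lay near the 8.11% of all genes, and none was higher. The median of that list was 0.25 (-0.03 without WT replicate 2). With the brightness term the differences of Camk4 and Pprc1 shrank to -0.60 and -0.71, and neither passed the test.

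Gprc6a, Hcrtr1 and Kiss1 kept differences of similar size with the brightness term. Gprc6a, a receptor for amino acids (chr10:51334629-51334688), had ratios of -0.73, -0.93 and -0.88 in Het mice and 1.36, 0.92 and 1.29 in WT mice, with SDs of 0.11 and 0.24 (difference -2.04 ± 0.26 SE, adjusted p = 0.023; -2.03 with the term). Hcrtr1, an orexin receptor, had -0.84, -0.87 and -0.80 against 0.86, 0.72 and 0.97 (-1.69 ± 0.25; -1.79 with the term), and a second probe, which overlaps the first, gave -1.97. For Kiss1, the kisspeptin gene, the ratios were -0.63, -0.78 and -0.33 against 1.35, 1.06 and 1.72 (-1.96 ± 0.29; -2.21 with the term). With normexp background correction Kiss1 differed by -0.90 and no longer passed the threshold, and Gprc6a (-1.13) and Hcrtr1 (-1.30) did. All ratios of these 3 genes were below 0 in Het mice and above 0 in WT mice. Pm20d1, a secreted enzyme that makes N-acyl amino acids, differed by -2.34 ± 0.32, and Pilra, an immune receptor, by -2.35 ± 0.40. Cblc, a ubiquitin ligase of the Cbl family, differed by -2.28 ± 0.42, and Spint1, a protease inhibitor, by -2.27 ± 0.46. 1700049G17Rik (-2.22 ± 0.32) and 1810010D01Rik (-2.27 ± 0.41) were also among the named genes. Adjusted p-values of these 6 genes lay between 0.023 and 0.027. With the brightness term Pm20d1 (-1.84), Pilra (-2.16) and 1700049G17Rik (-1.79) still passed the study threshold, and Cblc (-1.44), 1810010D01Rik (-1.62) and Spint1 (-0.68) did not.

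Among the nuclear genes named by size, that is, past the study threshold, without overlap and beyond 1 without WT replicate 2, the highest difference was that of Atp2a1, the calcium pump of the sarcoplasmic reticulum in fast fibres (chr7:133591703-133591762). Its ratio was -0.72, 0.11 and -0.25 in Het mice and -4.88, -2.56 and -1.82 in WT mice, a difference of 2.80 ± 0.67 (SE, adjusted p = 0.046). Its polysome level was 11.70 to 13.16 in Het and 9.51 to 11.69 in WT mice, and its whole-muscle level 12.41 to 13.42 against 13.48 to 14.39. Of 20 measured genes of calcium handling in the sarcoplasmic reticulum 3 were higher (15%, beside 3.79% of all genes) and none lower (median 0.40, and 0.23 without WT replicate 2). Casq1, the calcium store protein calsequestrin, differed by 1.67 ± 0.46 (adjusted p = 0.074), and Cacng1, a subunit of the muscle calcium channel, by 1.12 ± 0.39 (adjusted p = 0.16). The groups did not overlap for any of the 3. With the brightness term Atp2a1 differed by 0.69, and none of the 3 passed the test.

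**Figure D3:**
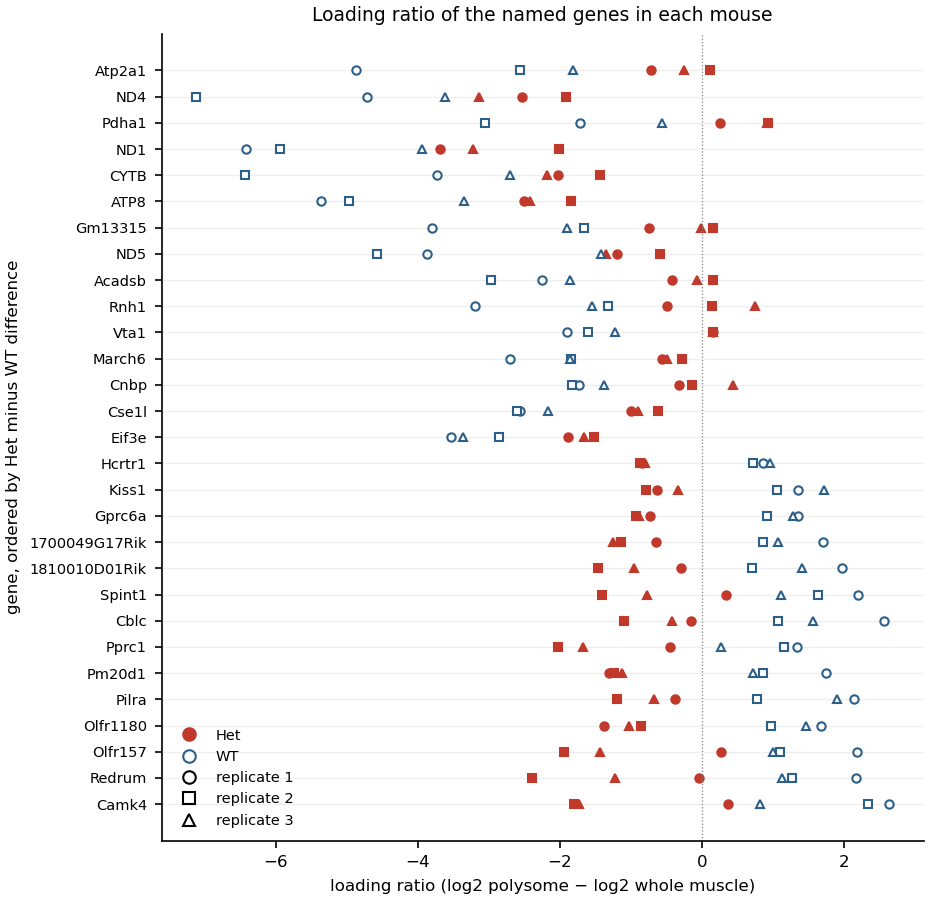
Loading ratio of the genes named by size and by consistency of the difference, 1 symbol per mouse (Het filled red, WT open blue; circle, square and triangle for replicates 1 to 3), ordered by the Het minus WT difference. Het and WT symbols do not overlap for any of these genes, and for the lower genes most Het ratios lie below 0 and all WT ratios above 0.

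Energy metabolism genes of the nuclear genome rose in part. Pdha1, the catalytic subunit at the entry of the pyruvate dehydrogenase complex (chrX:156560665-156560724), had ratios of 0.26, 0.93 and 0.92 in Het mice and -1.72, -3.05 and -0.56 in WT mice (2.48 ± 0.55 SE, adjusted p = 0.036). Of 12 measured genes of that complex and its regulators, 2 were higher (16.7%, beside 3.79% of all genes) and none lower (median 0.67). Dld, the shared dehydrogenase subunit, was the other (1.02 ± 0.37, adjusted p = 0.17), and its second probe gave 1.37. In the TCA cycle, 2 of 18 genes were higher (11.1%) and none lower, and the groups did not overlap, with Het above WT, for 10 of 18, beside 12.5% of all genes (median 0.68). Both were subunits of succinyl-CoA ligase, Suclg1 (1.44 ± 0.38, adjusted p = 0.065) and Sucla2 (1.0985 ± 0.47, adjusted p = 0.24).

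Of 24 genes of fatty acid oxidation 5 were higher (20.8%, beside 3.79% of all genes) and 1 lower (4.17%, beside 8.11%), and Het ratios lay above all WT ratios for 13, beside 12.5% of all genes (median 0.62). Cd36, a fatty acid transporter, rose by 1.79 ± 0.46 (adjusted p = 0.060), and Etfdh, which passes electrons from fatty acid oxidation to the respiratory chain, by 1.64 ± 0.63 (adjusted p = 0.19). The lower gene was Cpt1a, the liver form of the carnitine transferase (-1.84 ± 0.58, adjusted p = 0.11), whose groups overlapped and whose difference was 0.40 with the brightness term. Acadsb, a dehydrogenase of branched short-chain acyl groups, was among the most uniform rises. Its ratios were -0.42, 0.16 and -0.06 against -2.25, -2.96 and -1.85, a difference of 2.25 ± 0.34 (adjusted p = 0.023). Without WT replicate 2 the medians of the 3 lists fell to 0.27 for pyruvate dehydrogenase, 0.39 for the TCA cycle and 0.44 for fatty acid oxidation, and with the brightness term they were 0.28, 0.31 and 0.31. Acadsb still passed the study threshold with that term (1.39), and Pdha1 (0.80) and Cd36 (1.36) did not.

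Nuclear genes of the respiratory chain had few calls. Among 37 complex I genes 2 were higher and 1 lower (median -0.07), among 23 genes of complexes II to IV 1 was higher and 1 lower (-0.22), and among 17 complex V genes 1 was lower (0.04), shares of at most 5.88% beside the 3.79% of all genes called higher and 8.11% lower. Without WT replicate 2 the medians were -0.12, -0.36 and -0.01. Ndufa10 (1.18 ± 0.48) and Ndufs8 (1.05 ± 0.44) of complex I and Uqcrfs1 of complex III (1.03 ± 0.44) were higher, and Ndufa2 (-1.06 ± 0.27), Cox7a1 (-1.01 ± 0.32) and Atp5e (-1.03 ± 0.34) lower. Adjusted p-values of these 6 lay between 0.062 and 0.24. No gene of glycolysis passed the threshold among 29 measured (median 0.10).

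Genes encoded by mitochondrial DNA had the highest median of the lists. Of 13 measured genes, 10 were higher (76.9%, beside 3.79% of all genes) and none lower at the study threshold, and the median difference was 1.78. ND4 had ratios of -2.53, -1.92 and -3.14 in Het mice and -4.72, -7.12 and -3.61 in WT mice (2.62 ± 0.76 SE, adjusted p = 0.090). ND1 had -3.69, -2.01 and -3.22 against -6.41, -5.94 and -3.94 (2.46 ± 0.65, adjusted p = 0.065), and ATP8 -2.50, -1.84 and -2.42 against -5.36, -4.96 and -3.35 (2.30 ± 0.49, adjusted p = 0.031). The ratios of ND4, ND1 and ATP8 were negative in all mice of both genotypes after normalization. Relative to all transcripts of the arrays, these RNAs were thus poorer in polysome than in whole-muscle RNA throughout, and less so in Het mice. CYTB differed by 2.41 ± 0.79 and ND5 by 2.25 ± 0.69. ND6, named here after its value was seen, had a negative difference without overlap (-0.90 ± 0.40, adjusted p = 0.25).

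The mitochondrial rise rested on polysome RNA, where the median difference was 1.72, against -0.16 in whole muscle. Its size varied between mice: the median of the 13 genes was 1.09 without WT replicate 2, 2.20 among mice with the polysome array on slide 1 and 0.45 among those on slide 2, and -0.08 with the brightness term, under which ND1 and ND5 turned to -0.32 and -0.33. Before normalization, the median ratio of the 13 genes was -1.26, 1.25 and -1.12 in Het mice and -5.09, -6.40 and -2.23 in WT mice. These genes have near-copies in the nuclear genome, and a probe cannot tell them apart where the sequence is shared.

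**Figure D4:**
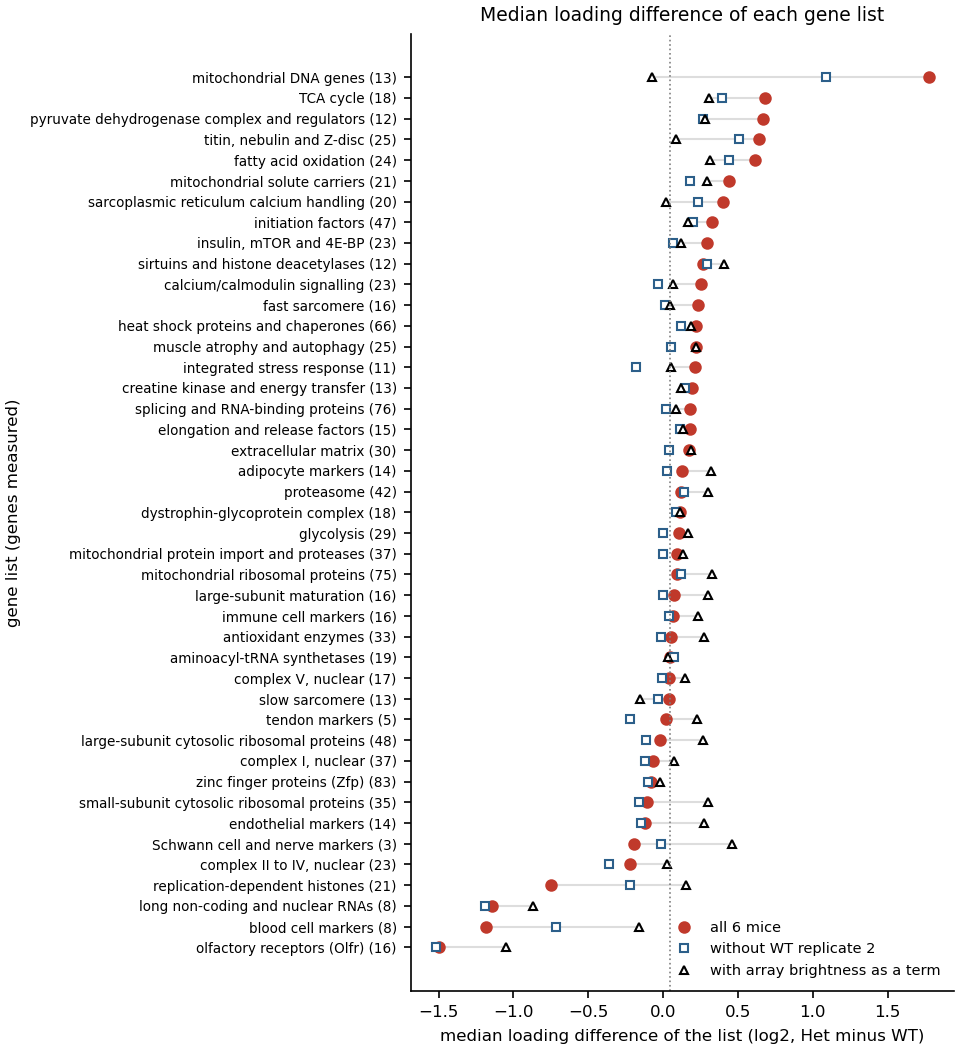
Median loading difference (log2, Het minus WT) of each gene list, with the number of genes measured in brackets, from all 6 mice (red circles), without WT replicate 2 (blue squares) and with array brightness as a term (triangles); the dotted line is the median of all genes, 0.05. Mitochondrial DNA genes have the highest median from all 6 mice (1.78) and -0.08 with the brightness term, and olfactory receptors the lowest under all 3 settings.

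The translation machinery, to which eIF6 belongs, showed few calls. None of 48 large-subunit and 35 small-subunit ribosomal protein genes passed the threshold in either direction (medians -0.02 and -0.11), nor did any of 16 genes for maturation of the large subunit (0.08). Of 47 initiation factor genes 3 were higher and none lower (6.38%, beside 3.79% of all genes; median 0.32, and 0.20 without WT replicate 2). Eif3e, a subunit of initiation factor 3, was among the most uniform, with ratios of -1.88, -1.52 and -1.66 in Het mice and -3.54, -2.86 and -3.37 in WT mice (1.57 ± 0.28 SE, adjusted p = 0.023; 1.47 with the brightness term). Eif3i of the same complex differed by 1.54 ± 0.53 (adjusted p = 0.14) and Eif2b1, a subunit of the exchange factor of eIF2, by 1.13 ± 0.33 (adjusted p = 0.090). Among 15 elongation and release factors 2 were higher (13.3%, beside 3.79% of all genes): Eef1a2, the muscle form of elongation factor 1A, by 1.75 ± 0.58 and Abce1, which recycles ribosomes, by 1.32 ± 0.41. In WT mice 1 to 3 the ratios were -3.18, -1.03 and -0.62 for Eef1a2 and -1.24, -2.64 and -1.17 for Abce1. Of 75 mitochondrial ribosomal protein genes 3 were higher (4%, near the 3.79% of all genes; median 0.09), among them Mrps27 (1.45 ± 0.39) and Mrpl37 (1.34 ± 0.46).

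Other higher genes came from several processes. Vta1, March6, Cse1l and Cnbp were named by consistency, and Rnh1 and Gm13315 by size, with SDs of 1.02 and 1.17 in WT mice. Vta1, which acts in endosome sorting, had ratios of 0.16, 0.16 and 0.16 in Het mice and -1.89, -1.60 and -1.22 in WT mice (1.73 ± 0.27, adjusted p = 0.023). March6, a ubiquitin ligase of the endoplasmic reticulum, rose by 1.69 ± 0.31, and Cse1l, an exportin, by 1.604 ± 0.27. Vta1 (0.93) and Cse1l (0.77) did not pass the threshold with normexp background correction. Cnbp, a nucleic acid binding protein, rose by 1.64 ± 0.30, but its second probe gave -0.54 (adjusted p = 0.28), so that its direction is uncertain. Rnh1, the ribonuclease inhibitor, had -0.49, 0.15 and 0.74 against -3.19, -1.32 and -1.54 (2.15 ± 0.51, adjusted p = 0.045), and Gm13315 differed by 2.25 ± 0.54 (adjusted p = 0.046).

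Structural genes of the fibre were read as 3 lists. Of 25 genes for titin, nebulin and the Z-disc 6 were higher (24%, beside 3.79% of all genes) and none lower (median 0.64, 0.51 without WT replicate 2, and 0.08 with the brightness term). Tmod1, which caps actin filaments, differed by 1.75 ± 0.43 (adjusted p = 0.049), Des, the intermediate filament desmin, by 1.51 ± 0.52 (adjusted p = 0.14) and Xirp2, an actin-binding protein, by 1.27 ± 0.46 (adjusted p = 0.16). Xirp2 turned to -0.17 with the brightness term, and with 0.92 it did not pass the threshold without WT replicate 2. Acta1, skeletal actin, was the only one of 16 fast sarcomere genes past the threshold (1.12 ± 0.38, adjusted p = 0.14; list median 0.23, and 0.01 without WT replicate 2), and none of 13 slow sarcomere genes was. Whether the lists differ from each other was not tested. Of 13 genes of energy transfer 3 were higher (23.1%, beside 3.79% of all genes): Ckm, muscle creatine kinase (1.71 ± 0.55), Prkag3, a subunit of AMP kinase (1.44 ± 0.52), and Ampd1, AMP deaminase (1.33 ± 0.33), with adjusted p-values between 0.054 and 0.17. In WT mice 1 to 3 the ratios were -2.85, -0.57 and -0.72 for Ckm, -1.80, 0.42 and -0.42 for Prkag3 and -3.51, -1.37 and -1.60 for Des. WT replicate 1 was thus the lowest for these genes. For Ampd1 the values were -1.27, -1.72 and -0.71.

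Sirt6, a nuclear deacylase, fell at the study threshold with SDs of 0.06 and 0.20 in Het and WT mice. Its ratios were -0.60, -0.72 and -0.66 against 0.73, 0.37 and 0.38 (-1.15 ± 0.25 SE, adjusted p = 0.035). The call was lost with the brightness term (-0.94) and with normexp background correction (-0.93). Sirt2 rose by 1.24 ± 0.43 (adjusted p = 0.15), and Sirt5, of the mitochondria, differed by 0.69 ± 0.33 without passing the test (adjusted p = 0.30). Sirt4 was not well above background on all arrays and was not tested.

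Markers of other cells in the muscle were compared as lists. Of 8 blood cell markers 4 were lower (beside 8.11% of all genes) and none higher (median -1.19), and the groups did not overlap, with Het below WT, for 6 (beside 14.8% of all genes). Hba-a1 and Hba-a2, near-identical alpha globin genes whose probes may share signal, differed by -1.40 ± 0.40 and -1.597 ± 0.47, and Alas2, the heme enzyme of red cells, by -1.48 ± 0.55 (adjusted p-values between 0.084 and 0.18). The difference lay in polysome RNA (median -1.05, against 0.12 in whole muscle), and the median was -0.72 without WT replicate 2 and -0.16 with the brightness term. For 16 immune markers the median loading difference was 0.07. Their median Het minus WT difference was -0.97 in polysome and -1.30 in whole-muscle RNA, and these arms were not tested. In whole muscle the level of Cd74, of antigen presentation, was 9.08, 8.25 and 8.94 in Het and 10.33, 8.64 and 9.32 in WT mice, so that WT replicate 2 lay among the Het mice. Among the 16 immune markers Fcer1g, an immune receptor chain, had lower loading (-1.14 ± 0.41, adjusted p = 0.16), though its groups overlapped. Endothelial markers (14 genes) had no call, adipocyte markers (14 genes) had 1 (7.14%, near the 8.11% of all genes called lower), Plin1 (-1.14 ± 0.27, adjusted p = 0.044), and of 5 tendon markers Fmod was higher (1.53 ± 0.38) and Chad lower (-1.08 ± 0.41), 1 call in each direction beside 3.79% and 8.11% of all genes.

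Replication-dependent histone genes, whose mRNAs lack a poly(A) tail, had a median of -0.75 (21 genes, 3 lower and 1 higher, or 14.3% and 4.76% beside 8.11% and 3.79% of all genes). Hist1h2ao (-1.98 ± 0.53), Hist1h2ag (-1.31 ± 0.47) and Hist1h2an (-1.25 ± 0.42) were lower, with adjusted p-values between 0.071 and 0.16. They are near-copies of each other, and their probes may share signal. Without WT replicate 2 the list's median was -0.22, and with the brightness term 0.15. Of 83 zinc finger genes 7 were lower (8.43%, near the 8.11% of all genes) and 1 higher (median -0.08). Zfp646 (-1.82 ± 0.35) and Zfp189 (-1.65 ± 0.33) were lower at adjusted p-values of 0.025 and 0.027, and Zfp189 lost its call with the brightness term (-0.998).

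The loading difference of RefSeq mRNAs also varied with the base composition of the probe. The median difference was 0.23 for the 2305 genes with 35 to under 40% G and C in the probe and -0.17 for the 702 genes with 55% or more (Spearman rho -0.25 across genes, which are not independent replicates). Without WT replicate 2 the values were 0.03 and -0.07, and rho was -0.04. Within single mice, the ratio correlated with G and C content with rho of 0.37 in WT replicate 2, 0.22 in WT replicate 3, and between -0.06 and 0.02 in the other 4 mice. Probes that start at base 499 of the transcript or before had a median of -0.22 (472 genes), and probes that start at bases 1001 to 1999 had 0.14 (2137 genes). Without WT replicate 2 these were -0.12 and 0.09.

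**Figure D5:**
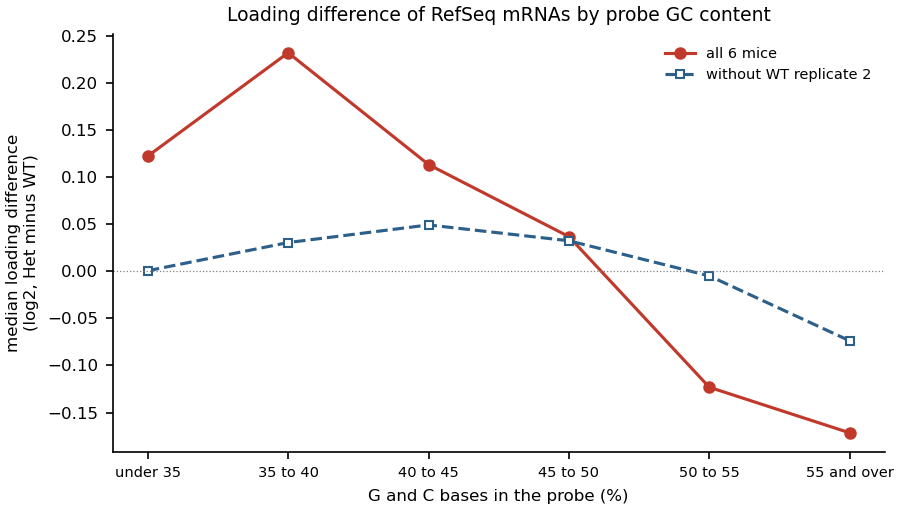
Median loading difference (log2, Het minus WT) of RefSeq mRNAs in 6 bins of the share of G and C bases in the probe, from all 6 mice (red) and without WT replicate 2 (blue). The median falls from 0.23 in the bin from 35 to 40% to -0.17 in the highest bin with all mice, and from 0.03 to -0.07 without WT replicate 2.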

How the data were processed

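RNA of 6 mice was hybridised in 1 colour to Agilent arrays of 60-base probes. The authors deposited spot intensity files made with Agilent Feature Extraction 11.0.1.1, and a table of log2 values. The intensity used is the processed signal, background-subtracted and detrended but not scaled between arrays. Spots marked as outliers were left out, spots of a probe were averaged as log2 values, and the 12 arrays were quantile normalized together. A probe counted as well above background where at least 0.5 of its spots were. Each mouse gave both RNA kinds, and arrays were paired by the replicate number in the titles, which is assumed to name the mouse. Deviations of same-number arrays correlated with r of 0.41, 0.37 and 0.71 in Het and 0.19, 0.31 and 0.05 in WT, and 2 polysome arrays correlated slightly more with another number (Het 2 with 1, 0.373 against 0.366, and WT 1 with 3, 0.26 against 0.19), so that the data bear the pairing out only weakly in WT, and without it no adjusted call is left. The ratios (6 per probe) were fitted with genotype as the term (limma 3.58.1, lmFit and eBayes, in R 4.3.3). The design text gives separate mice, so the spread is between animals. Adjusted p-values are Benjamini-Hochberg over all 11478 probes. Gene names are the array's; 6887 of 6922 tested names with a RefSeq accession matched the RefSeq table. No annotation of build mm9 was used, so exon or UTR is not given. Named genes are the 10 highest and 10 lowest differences past the study threshold with non-overlapping groups and a difference beyond 1 without WT replicate 2, the 6 smallest p in each direction, up to 3 members per list with the largest difference, and Eif6 and 3 sirtuins; ND6 and the intergenic loci were added after their values were seen. Members, lists and named genes were chosen with earlier results of these data known. Monosome arrays were not used. Figures used Python 3.11.15, matplotlib 3.10.9, numpy 2.4.6 and pandas 2.3.3. Alternatives covered background correction, scaling, the authors' log2 table, centring, filters, slide, brightness, pairing, test, probe choice and leaving out each mouse. The number of arrays limits the precision.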

Additional observations from a re-analysis of the deposited data

Results flagged for a closer look

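For 31 of the genes named, all 3 Het ratios after normalization lay on one side of 0 and all 3 WT ratios on the other. Ratios above 0 are called enriched on polysomes here, and ratios below 0 depleted. The genes were named mostly for large or consistent differences, and the share of all tested genes with such signs was not counted. Some ratios lay near 0, such as -0.03 in Het replicate 1 and 0.01 in WT replicate 3 for Atp5e. The differences were tested with limma (n = 3 against 3), with adjusted p-values between 0.023 (such as Vta1) and 0.19 (Etfdh). The signs were read from the ratios and not tested as such. Enriched in Het and depleted in WT mice were Pdha1 (2.48), Eef1a2 (1.75), Vta1 (1.73), Ckm (1.71), Casq1 (1.67), Etfdh (1.64), Sqstm1 (1.64), Mrps27 (1.45), Prdx3 (1.35), Srsf6 (1.26) and Cacng1 (1.12), each with its loading difference on the log2 scale. Of these, only Vta1 still passed the study threshold with the brightness term.

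Depleted in Het and enriched in WT mice were the receptor genes Olfr1180 (-2.46), Olfr1348 (-1.68), Pilra (-2.35), Gprc6a (-2.04) and Hcrtr1 (-1.69), and the RNAs Redrum (-2.74) and Terc (-1.47). The same held for Pm20d1 (-2.34), Pprc1 (-2.30), Cblc (-2.28), 1810010D01Rik (-2.27), 1700049G17Rik (-2.22), Kiss1 (-1.96), Zfp646 (-1.82), Rbm47 (-1.72), Zfp189 (-1.65), Hba-a1 (-1.40), Sirt6 (-1.15), Plin1 (-1.14) and Atp5e (-1.03). With the brightness term Olfr1180, Olfr1348, Pilra, Gprc6a, Hcrtr1, Terc, Pm20d1, 1700049G17Rik, Kiss1 and Zfp646 still passed the study threshold, and the other depleted genes did not. Normalization sets the median of each array equal, so that the place of 0 is relative to all transcripts of the array.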

How the results depend on the processing

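At the study threshold 1317 gene names were called (470 higher, 849 lower). The total was 653 with normexp background correction (219 higher, 436 lower), 722 with the authors' table (273 and 451), 2623 with the any-group filter (1271 and 1366), 3794 without a filter (1794 and 2071), 157 among mice with the polysome array on slide 1 (48 and 109) and 645 with the brightness term (43 higher, 603 lower). The slide term left 280 higher and the methods' t-test 201. Leaving out each mouse gave 1043 to 1672 in total, 325 to 711 higher (711 without WT replicate 3) and 720 to 966 lower. The 608 adjusted probes became 0 with the any-group filter, no filter, the slide term, slide 1 alone, the brightness term and no replicate block, 7 with the methods' t-test, and 0 to 1119 without one mouse; unadjusted p-values under 0.05 numbered 160 to 5534 in these fits. The replicate block across genotypes gave 1343 names and 603 probes and changed no call of a named gene; samples of one number shared no mouse across genotypes (r of their deviations 0.15, -0.21 and 0.07).

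The median of all probes (0.07) was 0.0217 with 75th percentile scaling, 0.1713 with the any-group filter, -0.0215 without a filter, and 0.0261 to 0.0683 without one mouse. The spread between genotypes (-0.33) kept its sign in all 12 alternatives, but was -0.03 without a filter, and -0.41 to -0.21 without one mouse. Intergenic loci, whose alternatives were chosen after seeing the data, had 297 lower, and 159 with normexp, 165 with the authors' table, 41 on slide 1 alone and 264 to 301 without one mouse. Their median (-0.52) was -0.37 with normexp and with the authors' table, -0.70 with the brightness term, and -0.68 to -0.42 without one mouse. Of 1734 values of named genes, 411 kept their sign but no longer passed the threshold (71 with the brightness term, 72 on slide 1 alone, 32 with normexp, 25 with the authors' table). A further 7 changed sign and did not pass either, all with the brightness term: ND1 (-0.32), ND5 (-0.33), Cpt1a (0.40), Timm10b (0.13), Xirp2 (-0.17), Eprs (-0.35) and Zfp57 (0.79). The brightness term thus ended 78 calls. The causes were not tested. Slide 1 alone had 1 Het and 2 WT mice and slide 2 the reverse, and the lone mouse is assumed to vary like the others.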

Other observations

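Protein degradation and folding genes are given beside the 3.79% of all genes called higher. Of 42 proteasome genes 3 were higher (7.14%, median 0.12), Psmc6 (1.34 ± 0.52 SE), Psmb2 (1.27 ± 0.40) and Psmb1 (1.004 ± 0.36), with adjusted p-values between 0.12 and 0.19. Of 66 chaperone genes 3 were higher (4.54%, median 0.22), and of these Tcp1 and Cct6a encode subunits of the ring chaperone that folds actin and tubulin. Tcp1 had ratios of -1.72, -1.31 and -1.49 in Het mice and -2.98, -2.46 and -2.62 in WT mice (1.18 ± 0.27, adjusted p = 0.042), and Cct6a differed by 1.48 ± 0.44 (adjusted p = 0.10). Among 19 tRNA synthetases 2 were higher (10.5%), Eprs (1.09 ± 0.44) and Iars (1.08 ± 0.42), neither with an adjusted p under 0.05. Neither passed the threshold without WT replicate 2 (0.69 and 0.56), and Eprs turned to -0.35 with the brightness term.

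Splicing and RNA-binding genes had 2 higher and 1 lower call of 76 (2.63% and 1.32%, below the 3.79% and 8.11% of all genes; median 0.18, and 0.02 without WT replicate 2). Srsf6, a splicing factor, had ratios of 0.15, 0.66 and 0.78 in Het and -0.80, -0.78 and -0.60 in WT mice (1.26 ± 0.28, adjusted p = 0.034), and Rbm47, an RNA-binding protein, -0.13, -1.13 and -1.13 against 0.87, 0.75 and 1.13 (-1.72 ± 0.33, adjusted p = 0.025). Sqstm1, an autophagy receptor, was the only one of 25 atrophy and autophagy genes past the threshold (1.64 ± 0.54, adjusted p = 0.13). Its ratios in WT mice 1 to 3 were -2.66, -0.35 and -0.65. Prdx3, a mitochondrial peroxidase, was the only one of 33 antioxidant genes past the threshold (1.35 ± 0.35, adjusted p = 0.066). None of 21 mitochondrial solute carriers was (median 0.44, and 0.18 without WT replicate 2). None of 23 genes of insulin and mTOR signalling and none of 11 of the integrated stress response passed the threshold (medians 0.29 and 0.22, and 0.07 and -0.18 without WT replicate 2). In the extracellular matrix 2 of 30 genes were higher (6.67%, beside 3.79% of all genes) and 1 lower (3.33%, beside 8.11%), among them Mmp2, a matrix protease, with 1.84 ± 0.51 and Fbln1, fibulin 1, with -1.28 ± 0.46.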
